A study of Mus musculus with 15 samples.

Results

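The cytosolic ribosome of the mouse liver was examined through the genes that encode its proteins. Genes were taken when the name the array design gives to their probes was a plain large-subunit (Rpl) or small-subunit (Rps) name, or was Rpsa, Rplp0, Rplp1 or Rplp2. This gave 76 genes with 175 probes, of 22032 gene symbols with 29522 probes on the array. The large subunit contributed 46 genes with 110 probes and the small subunit 30 genes with 65 probes. Liver RNA of male CD1 mice had been hybridised to 15 single-colour arrays. Animals of the DEN group and of the Gas1 group had received 25 μg of diethylnitrosamine (DEN), a carcinogen that gives liver tumors, per g of body weight on day 15 after birth, and those of the Control group had received saline. All animals were given plasmid DNA, 50 μg at a time, by hydrodynamic gene delivery (HGD), a fast tail vein injection that brings plasmid into liver cells, between week 28 and week 34, and livers were taken at week 35. The plasmid of the Gas1 group carried Gas1, a growth arrest gene, under the CAG promoter, and that of the other groups was empty, so that HGD itself is shared by every animal. The labels give an age of 10 weeks in place of the study's schedule. HGD reaches only a share of the liver cells, mostly near vessels, and the RNA is that of liver tissue, with the lobe or lesion it came from not given in the sources used here. There were 4 Control, 5 DEN and 6 Gas1 arrays. The labels title every array as a separate sample, but a pair of Control arrays and a pair of DEN arrays each carried 1 RNA code and differed less from each other than other pairs of their group did. Each such pair was averaged and counted as 1 mouse, which left 3 Control, 4 DEN and 6 Gas1 mice. With the 15 arrays taken as separate samples, 13 in place of 3 ribosomal protein genes were called in DEN against Control livers. Of all 22032 genes, 1947 in place of 525 were then called.

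The arrays had between 15707 and 29765 spots well above background, with medians of 19820.5 in Control, 20991 in DEN and 25491 in Gas1 arrays. The number of arrays, not a read depth, limits the precision. Both slides held arrays of every group. The signal of Gas1 itself did not tell the groups apart, with means of 6.53 ± 0.20 (SD, n = 3) in Control, 6.54 ± 0.09 (SD, n = 4) in DEN and 6.61 ± 0.11 (SD, n = 6) in Gas1 livers on the log2 scale. These values are dim, near the median of all genes (6.29). Whether the array reads the transcript of the plasmid was not tested. The study followed the tagged transcript and protein after HGD by RT-PCR and western blot, which this signal does not address. The groups are therefore those of the labels. All 10 hepatocyte markers were well above background on every array. Of the 76 ribosomal protein genes, 75 had a probe well above background on all arrays, and 163 of the 175 probes were so. The exception was Rpl21, with 1 probe well above background on none and 1 on 13 of the 15 arrays, while the array's 3 genes named as Rpl21 pseudogenes were well above it on all.

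A ribosome reads an mRNA on its small subunit and joins amino acids on its large subunit. Each protein of either subunit is needed in about the same number of copies as the others, except for the acidic proteins P1 and P2 of the stalk, which are present in more than 1 copy. Cells make these proteins from mRNAs that mostly begin with a terminal oligopyrimidine (TOP) tract, a run of C and T that starts with C at the first base and through which growth signals control their translation as a group. The liver renews its ribosomes throughout life, and growing or regenerating liver makes more of them. Array signals measure the mRNAs and say nothing about their translation or about ribosome number.

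The TOP tract is a feature the choice of genes did not use. It was looked for at the RefSeq start of each gene (GRCm38.p6), as C at the first base followed by at least 4 further C or T, on the gene's own strand. Of the 76 genes, 75 were found in RefSeq by symbol and Rps3a by its accession (as Rps3a1), and 56 had an entry in the table of start regions used here. A TOP tract stood at the annotated start of 13 of these 56 genes (23.2%), with 7 of 34 in the large and 6 of 22 in the small subunit. Over all 27025 genes of that table the share was 3.01%. It was 5 of 18 (27.8%) for elongation factors and other mRNAs known for a TOP tract, 0 of 69 for the proteins of the mitochondrial ribosome and 0 of 57 for genes of ribosome assembly. The windows below run from 15 bases before the start to 15 bases from it onward, on the gene's strand, and capitals mark the tract, or the first base alone where there is none. They are shown because they belong to genes whose values are described further on, 4 with a tract and 2 without one at the annotated base.
Rps27, chr3:90213634-90213663, minus strand: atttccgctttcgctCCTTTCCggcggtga
Rplp2, chr7:141447636-141447665, plus strand: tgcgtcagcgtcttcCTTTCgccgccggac
Rps6, chr4:86857353-86857382, minus strand: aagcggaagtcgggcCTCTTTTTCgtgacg
Rpl15, chr14:18270972-18271001, minus strand: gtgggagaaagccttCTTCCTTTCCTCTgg
Rpsa, chr9:120127751-120127780, plus strand: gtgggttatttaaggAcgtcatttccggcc
Rplp0, chr5:115559452-115559481, plus strand: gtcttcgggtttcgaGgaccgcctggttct
A start placed a few bases off by the annotation hides a tract, so a missing tract says only that these letters are not at this base. In DEN against Control livers the median log2 difference was 0.25 for the 13 genes with a tract, 0.14 for the 43 without one and 0.16 for the 20 with no entry.

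The first comparison set DEN livers against those of saline animals given the same empty plasmid. Most ribosomal protein genes lay slightly higher in DEN livers. The median log2 difference of the 76 genes was 0.16, a 1.12-fold difference, against 0.01 for all genes of the array and 0.01 for the 8465 genes detected on all arrays. It was above 0 in 63 of the 76 genes (82.9%), against 52.1% of all genes. In the limma test with Benjamini-Hochberg adjustment over all genes, 3 genes rose at an adjusted p under 0.05, namely Rplp0, Rps27 and Rpsa, which is 3.95% of the 76, and 1.22% of all genes were called higher. None of the 76 was called lower, against 1.17% of all genes, and 2 were lower at an unadjusted p under 0.05. The methods' t-test with equal variances, adjusted in the same way, called 0 of the 76 genes and 0 of all genes, with 25 of the 76 at an unadjusted p under 0.05. The methods name that test for cells, groups of animals and RT-PCR, and the multtest package for array genes. Its equal variances and adjustment were chosen here. The study's calling of array genes with that package was not repeated, so these counts say nothing about its result.

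At an unadjusted p under 0.05, 30 of the 76 genes (39.5%) were higher in DEN livers, against 10.8% of all genes and 13.3% of the genes detected on all arrays, and 2 (2.63%) were lower, against 9.48% of all genes. The mice did not overlap, with every DEN mouse above every Control mouse, in 27 of the 76 genes, against 10.4% of all genes. They were 17 of the large subunit, with log2 differences between 0.09 and 0.52, and 10 of the small subunit, with log2 differences between 0.14 and 0.47. Named in order of size, those of the large subunit were Rplp0, Rpl13a, Rpl38, Rpl8, Rpl35, Rpl27a, Rpl34, Rpl32, Rpl17, Rpl36, Rpl28, Rpl39, Rpl6, Rpl13, Rpl24, Rpl19 and Rpl37, and those of the small subunit included Rps27, Rpsa, Rps18, Rps6, Rps4x, Rps13, Rps12, Rps7 and Rps15a. In the opposite direction only Rpl10, a protein of the large subunit that joins late in its assembly, did not overlap, against 8.3% of all genes. Its log2 difference was -0.14 (SE 0.05, adjusted p = 0.167 from limma). Overlap was judged only where every mouse of both groups had a value, and 71 of the 76 genes had one in all 13 mice. Next to the called genes stood Rps18, which encodes a protein at the head of the small subunit, with a log2 difference of 0.27 (SE 0.07, adjusted p = 0.0581, limma). Rpl13a, known also for a role outside the ribosome in silencing inflammatory mRNAs, had 0.35 (SE 0.11, adjusted p = 0.106, limma), and Rpl8 had 0.31 (SE 0.09, adjusted p = 0.0901, limma). These 3 genes are named after their values were seen.

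**Figure D1:**
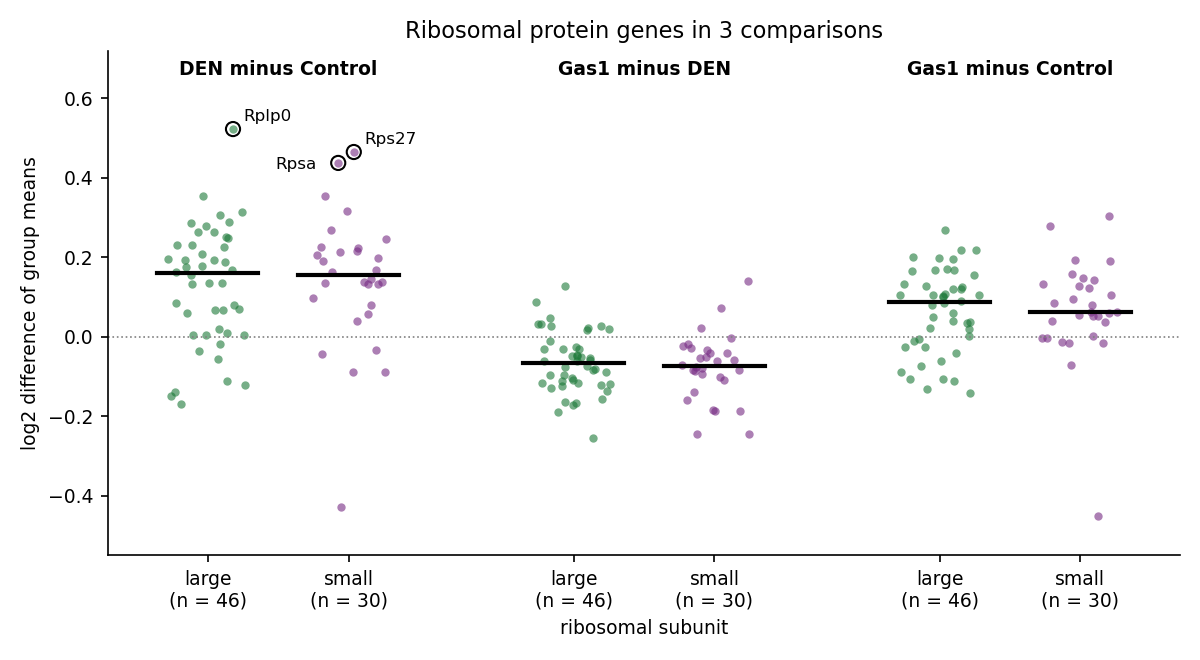
Log2 difference of group means (vertical axis) of each of the 76 ribosomal protein genes, by subunit and comparison; bars are medians and circled points have an adjusted p under 0.05 (limma). In DEN minus Control the medians are 0.16 and 0.15, and Rplp0, Rps27 and Rpsa are the called genes. The low point of the small subunit in the outer comparisons is Rps2.

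Both subunits moved by about the same amount. The median log2 difference of DEN against Control livers was 0.16 for the large and 0.15 for the small subunit. An adjusted p under 0.05 was reached by 1 of 46 large and 2 of 30 small subunit genes, and an unadjusted p under 0.05 in the higher direction by 17 and 13. For each mouse, the median deviation of the 76 genes from the Control mean was then taken. It was -0.03, 0.02 and 0.00 in the Control mice, and 0.08, 0.26, 0.11 and 0.15 in the DEN mice. In the Gas1 mice it lay between 0.00 and 0.09. Every DEN mouse was above every Control mouse, and the lowest DEN mouse (0.081) was below the highest Gas1 mouse (0.094). The group means were 0.00 ± 0.03 (SD, n = 3), 0.15 ± 0.08 (SD, n = 4) and 0.06 ± 0.04 (SD, n = 6). The large minus the small subunit median was 0.00 ± 0.01 in Control, 0.00 ± 0.07 in DEN and 0.00 ± 0.05 in Gas1 mice (SD, same n), so the subunits differed by less than the spread between mice. The highest DEN mouse was DEN 2, in which the small subunit stood at 0.28 and the large subunit at 0.18.

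**Figure D2:**
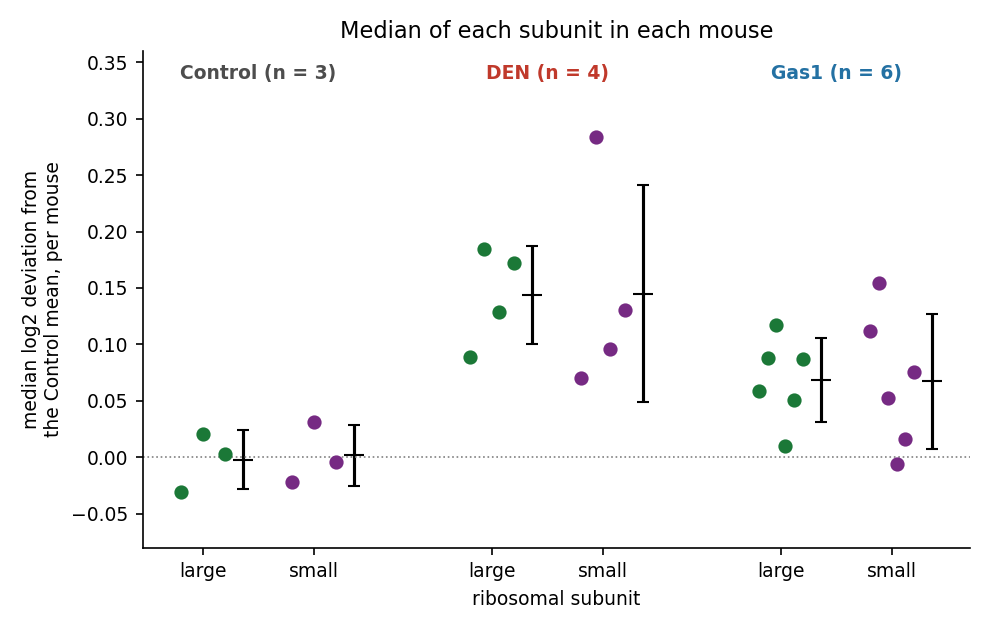
Median log2 deviation from the Control mean (vertical axis) of the large and the small subunit genes in each mouse, by group; points are mice and bars are the mean ± SD of the mice. Control mice lie near 0, DEN mice above them and Gas1 mice between or beside both, and in each group the subunits lie at about the same height.

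The called genes were followed by mouse. Rplp0 encodes P0, the base of the stalk on which the large subunit receives translation factors, and is often used as a reference gene in RT-PCR. Its log2 signal was 13.21, 13.27 and 13.25 in the Control mice and 13.53, 13.92, 13.78 and 13.84 in the DEN mice. The Gas1 mice lay between 13.30 and 13.63 with a median of 13.58. Every DEN and every Gas1 mouse was above every Control mouse, and the Gas1 mice overlapped the lowest DEN mouse. The log2 difference of DEN against Control was 0.52 (SE 0.10, adjusted p = 0.0217, limma), which is 1.44-fold.

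Rps27 encodes a small zinc finger protein of the small subunit. Its log2 signal was 13.15, 13.37 and 13.21 in the Control mice and 13.58, 13.77, 13.77 and 13.71 in the DEN mice. The Gas1 mice lay between 13.42 and 13.66 with a median of 13.48. All DEN and all Gas1 mice were above all Control mice. The log2 difference of DEN against Control was 0.47 (SE 0.08, adjusted p = 0.0156, limma), which is 1.38-fold.

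Rpsa encodes uS2, a protein of the small subunit that is also known as the laminin receptor precursor. It belongs to a list of genes that the study had picked on these samples, so its direction is no independent evidence. Its log2 signal was 11.19, 11.19 and 11.30 in the Control mice and 11.43, 11.67, 11.69 and 11.86 in the DEN mice. The Gas1 mice lay between 11.21 and 11.56 with a median of 11.42. The DEN mice were above the Control mice without overlap, and the Gas1 mice overlapped both. The log2 difference of DEN against Control was 0.44 (SE 0.10, adjusted p = 0.0422, limma), which is 1.35-fold.

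These genes were picked by their calls on these same arrays, and RNA of a Control and of a DEN mouse was on both slides, so values by slide are a description. On slide 1 the differences were 0.59 for Rplp0, 0.45 for Rps27 and 0.51 for Rpsa, and on slide 2 they were 0.51, 0.50 and 0.42. None of these passed an adjusted p of 0.05 in limma within a slide. The median of the 76 genes was 0.19 on slide 1 and 0.12 on slide 2. The calls depended on single mice. The call of Rps27 was lost without Control 1 or DEN 3, that of Rplp0 without Control 1, Control 2, DEN 2, DEN 3 or DEN 4, and that of Rpsa without any of these, Control 3, Gas1 3 or Gas1 5. Without Control 1 or DEN 3, 0 of the 76 genes were called, without Control 2, DEN 2 or DEN 4 there was 1, and without DEN 1 there were 5. The median of the 76 genes stayed between 0.12 and 0.17 whichever mouse was left out.

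**Figure D3:**
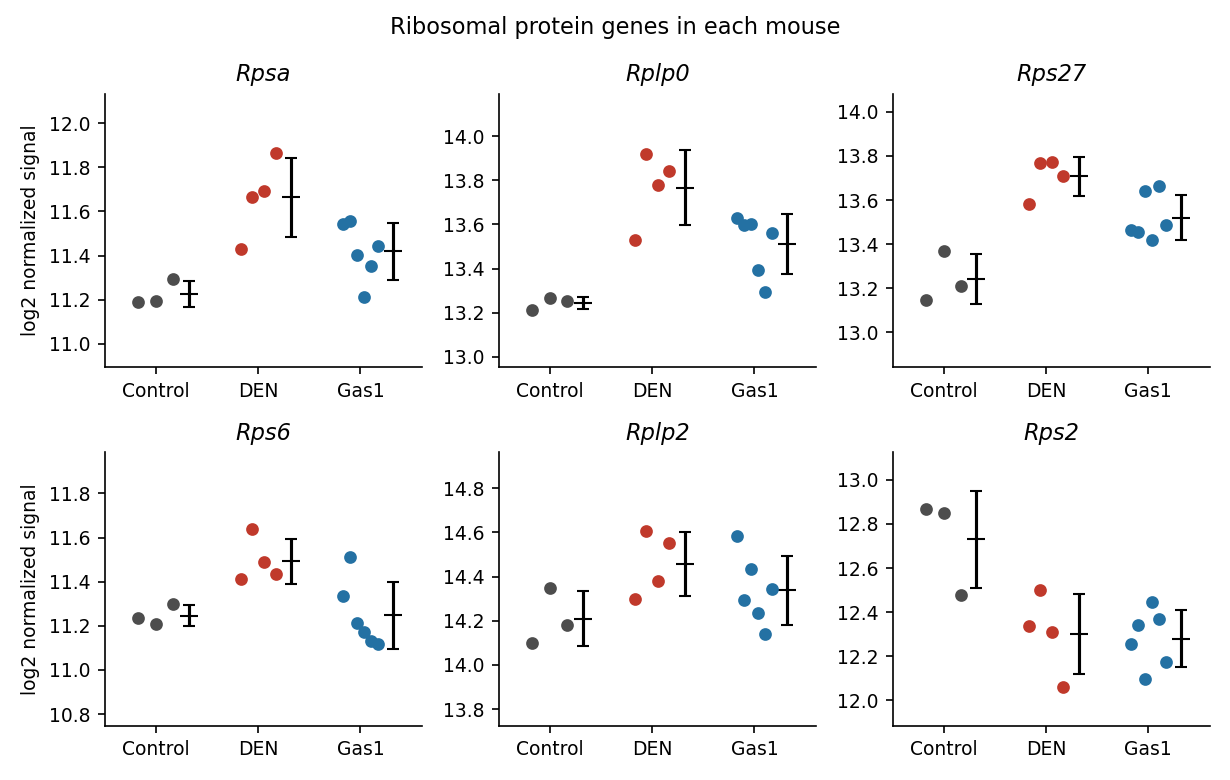
Log2 normalized signal (vertical axis, the same span of values in each panel) of 6 genes in each mouse by group; points are mice and bars are the mean ± SD. Rpsa, Rplp0, Rps27 and Rps6 show every DEN mouse above every Control mouse, Rplp2 shows overlap, and Rps2 lies lower in DEN and Gas1 mice.

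The other proteins of the stalk were measured by 1 probe each. P1 and P2, encoded by Rplp1 and Rplp2, bind P0 as pairs and carry the same acidic end. The log2 signal of Rplp2 was 14.10, 14.35 and 14.18 in the Control mice, 14.30, 14.61, 14.38 and 14.55 in the DEN mice, and between 14.14 and 14.58 in the Gas1 mice, so that all groups overlapped. Its difference of DEN against Control was 0.25 (SE 0.11, adjusted p = 0.211, limma). Rplp1 read 13.78, 13.66 and 13.43 in the Control mice and 13.86, 13.72 and 13.83 in DEN 1, DEN 3 and DEN 4, while DEN 2 had no value because its spot was flagged and the fit left it out. Its difference was 0.18 (SE 0.11, adjusted p = 0.395, limma).

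Some members are known for roles in signalling. Rps6, whose protein is the phosphorylated target of S6 kinase in growth signalling, read 11.23, 11.21 and 11.30 in the Control mice and 11.41, 11.64, 11.49 and 11.43 in the DEN mice. The Gas1 mice lay between 11.12 and 11.51 with a median of 11.19, in the range of the Control mice or below it in all but the 2 highest animals. The log2 difference of DEN against Control was 0.25 (SE 0.09, adjusted p = 0.156, limma). Rpl5 and Rpl11 encode the proteins that carry 5S rRNA into the large subunit and that, when free, bind Mdm2, the negative regulator of p53. Rpl11 read 12.94, 13.12 and 13.21 in the Control mice and 13.20, 13.28, 13.24 and 13.32 in the DEN mice, and between 12.91 and 13.32 in the Gas1 mice. Its log2 difference of DEN against Control was 0.17 (SE 0.09, adjusted p = 0.336, limma). Rpl5 read 10.47, 10.04 and 10.30 in the Control mice and 10.43, 10.45, 10.16 and 10.09 in the DEN mice, and between 9.87 and 10.55 in the Gas1 mice, with a difference of 0.01 (SE 0.16, adjusted p = 0.982, limma). For both genes the groups overlapped. Rps27a, made as a fusion with ubiquitin, read between 10.704 and 10.82 in the Control mice, between 10.81 and 11.04 in the DEN mice and between 10.71 and 10.98 in the Gas1 mice. Its difference was 0.14 (SE 0.07, adjusted p = 0.307, limma), again with overlap.

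Rps2, whose protein lines the channel through which mRNA enters the small subunit, had the lowest value. Its log2 signal was 12.87, 12.85 and 12.48 in the Control mice and 12.34, 12.50, 12.31 and 12.06 in the DEN mice. The Gas1 mice lay between 12.10 and 12.44 with a median of 12.30. The DEN mice overlapped the lowest Control mouse and every Gas1 mouse was below every Control mouse. The log2 difference of DEN against Control was -0.43 (SE 0.12, adjusted p = 0.0726, limma). The next lowest were Rpl15 and Rpl35a, both of the large subunit. Rpl15 read between 10.44 and 10.83 in the Control mice and between 10.40 and 10.45 in the DEN mice, a difference of -0.17 (SE 0.11, adjusted p = 0.45, limma). Rpl35a read between 11.66 and 12.18 in the Control mice and between 11.72 and 11.97 in the DEN mice, a difference of -0.15 (SE 0.14, adjusted p = 0.604, limma). The mice overlapped in both. Without Control 3 the value of Rps2 was -0.56 with an adjusted p of 0.0377 (limma).

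The probes behind these values are 60 bases long and carry the sequence of the mRNA. Ribosomal protein genes have many near-identical processed copies in the genome, and an array cannot tell the gene from such a copy where the bases are the same. Of the 175 probes, 12 of 6 genes were listed by the files on another chromosome than RefSeq gives the gene (Rpl13, Rpl31, Rpl36, Rps27, Rps29 and Rps4x), 15 of 7 genes listed an accession of a further gene, and 1 had no position. Probes of the same gene overlapped in 24 pairs of 18 genes, by 28 to 60 bases, and 21 of these pairs differed in 1 to 11 bases of the overlap. The pair of Rplp0 shows this best, because both probes are listed at the same place on chromosome 5 and share 53 bases that hold the stop codon. They are printed with capitals at the 5 bases that differ.
Rplp0 probe at chr5:116013404-116013463 (mm9, plus strand): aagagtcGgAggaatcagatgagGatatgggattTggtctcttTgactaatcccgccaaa
Rplp0 probe at chr5:116013397-116013456 (mm9, plus strand): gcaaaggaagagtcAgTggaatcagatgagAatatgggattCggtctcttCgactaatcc
Counted from the 5′ end of the former, the latter carries G8A, A10T, G24A, T35C and T44C. Both gave a higher signal in DEN livers, with log2 differences of 0.48 for the former and 0.61 for the latter. The remaining probe of Rplp0 gave 0.42.

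For Rpsa, 3 of the 4 probes were well above background on all arrays. Their log2 differences of DEN against Control were 0.56, 0.28 and 0.62. The last of these lies in the coding part and is listed over a stretch longer than its 60 bases, as a probe across an intron would be, and it is shown because it gave the highest difference.
Rpsa probe at chr9:120040269-120040849 (mm9, plus strand): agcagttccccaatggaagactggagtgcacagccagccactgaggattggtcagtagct
For Rps27 the 4 probes gave differences between 0.39 and 0.58. The files place all of them on chromosome 9 and list with them the accession of Rps27rt, a retrotransposed copy, whereas RefSeq has Rps27 on chromosome 3. The signal of the gene and that of its copy cannot be told apart here. The probe below lies in the coding part.
Rps27 probe at chr9:114891672-114891731 (mm9, minus strand): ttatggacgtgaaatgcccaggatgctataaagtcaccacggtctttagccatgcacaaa
For Rps2 the probes disagreed. Both are listed on chromosome 17, but 18.01 megabases apart, and their sequences do not overlap. The former below gave -0.15 and the latter -0.70 in DEN against Control livers, and -0.25 and -0.65 in Gas1 against Control livers.
Rps2 probe at chr17:24857583-24857642 (mm9, plus strand): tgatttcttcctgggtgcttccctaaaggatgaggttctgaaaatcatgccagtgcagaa
Rps2 probe at chr17:42864841-42864900 (mm9, plus strand): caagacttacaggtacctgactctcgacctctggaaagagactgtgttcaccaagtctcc
The latter, listed away from the former, gave the lower value in both comparisons.

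Disagreement of this size was rare. Of 52 genes with several probes well above background on all arrays, 4 had probes more than 0.5 apart in a comparison, namely Rpl14, Rps2, Rps3 and Rps3a. For Rpl14 the probes gave -0.44, 0.21 and 0.28 in DEN against Control livers, for Rps3 0.21, -0.59 and 0.25, and for Rps3a -0.48, 0.14 and 0.07. In these 3 genes a single probe went against the others. It was the dimmest of its gene, at a mean log2 signal of 7.44 for Rpl14, 7.88 for Rps3 and 10.44 for Rps3a. The other probes lay between 10.62 and 14.19. The dimmest probe of Rps3a also varied between mice, with an SD of 0.79 in DEN and 0.91 in Gas1 livers. The gene values average all probes of a gene. They were 0.00 for Rpl14 (SE 0.14, adjusted p = 0.993, limma), -0.04 for Rps3 (SE 0.14, adjusted p = 0.907, limma) and -0.09 for Rps3a (SE 0.22, adjusted p = 0.87, limma), with overlapping mice. Over all 163 probes, 134 were higher in DEN livers and the median difference was 0.16. With only the probes that were detected on all arrays, were listed on the gene's own chromosome and named no other gene, the median of the genes left was 0.16 and 2 were called. This setting was chosen after the data had been seen, and it leaves Rps27 with no probe.

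**Figure D4:**
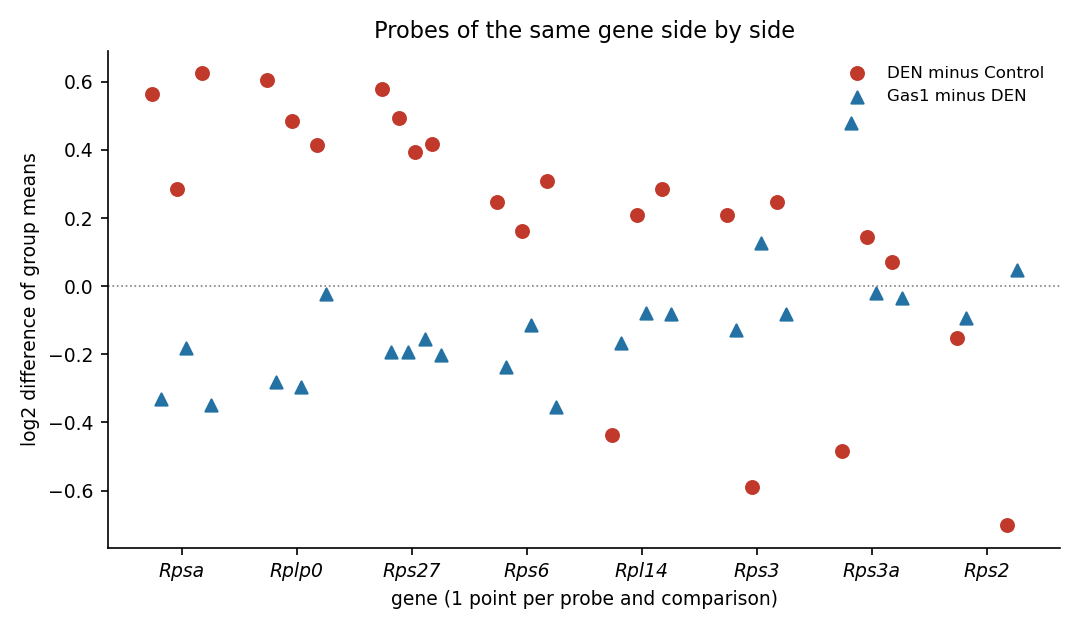
Log2 difference of group means (vertical axis) of each probe well above background on all arrays, for 8 genes; circles are DEN minus Control and triangles Gas1 minus DEN, 1 point per probe. In DEN minus Control the probes of Rpsa, Rplp0, Rps27 and Rps6 lie above 0, Rpl14, Rps3 and Rps3a each have 1 probe below it, and those of Rps2 lie at -0.15 and -0.70.

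The size of the shift depends on how arrays were scaled. After quantile normalization all arrays share 1 distribution of signals, and a shift of most genes together is not seen. With scaling to the median of each array, the 8465 genes detected on all arrays shifted by 0.65 in DEN against Control livers and the 76 genes by 1.16. With the software's processed signal and the 75th percentile the values were 0.09 and 0.31, while all genes of the array, most of them dim, shifted by -0.40. Relative to the detected genes the ribosomal protein genes were higher in DEN livers under each of these scalings. The 76 genes are bright, with a median log2 signal of 12.31 against 6.29 for all genes. The detected genes were not matched to them in signal, so this difference cannot be told apart from one that depends on brightness. With median scaling all genes of the array shifted by 0.12, less than the detected genes. The calls ranged from 0 with the processed signal to 59 with the median scaling. Of all genes, 57 and 2832 were called. Changes of single genes given here are relative to the array as a whole.

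**Figure D5:**
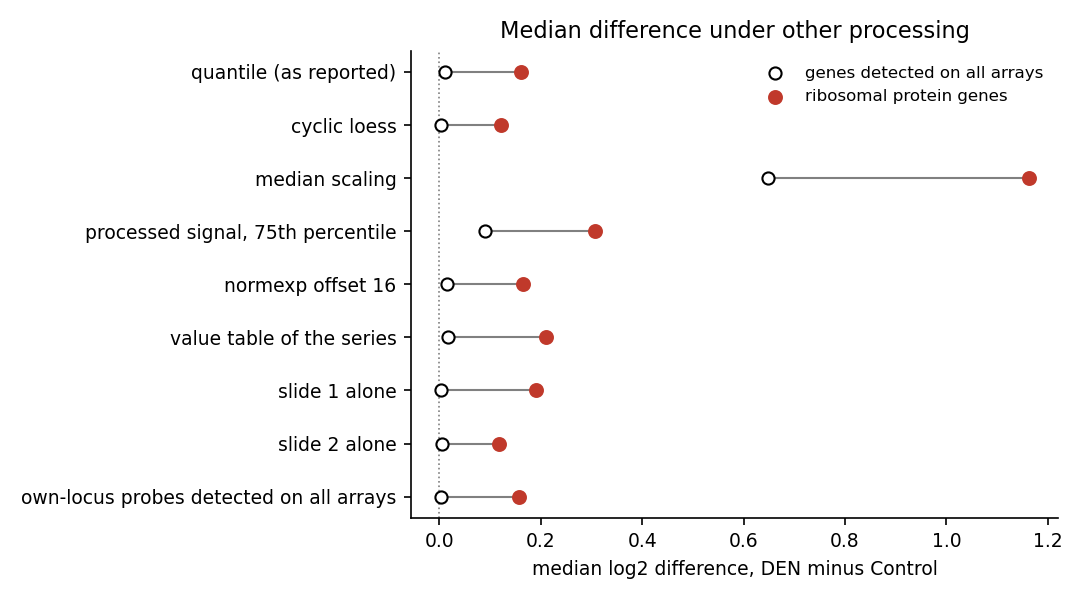
Median log2 difference of DEN minus Control (horizontal axis) of the ribosomal protein genes (filled) and of the 8465 genes detected on all arrays (open) under 9 ways of processing; the grey line joins the values of a setting. The filled point lies to the right of the open one in each, by most under median scaling.

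Gas1 against DEN livers addressed whether the Gas1 plasmid changed these genes in animals that had all received DEN. No ribosomal protein gene passed an adjusted p of 0.05 in limma, against 0.0272% of all genes called higher and 0.0999% called lower, and the methods' t-test also called 0 of the 76, with 7 at an unadjusted p under 0.05. The median log2 difference was -0.07, with -0.07 for the large and -0.07 for the small subunit, against -0.01 for all genes and -0.02 for the genes detected on all arrays. It was above 0 in 13 of the 76 genes. Without DEN 2 the median was -0.04, with 26 genes above 0 and 5 at an unadjusted p under 0.05. At an unadjusted p under 0.05, 8 genes were lower (10.5%), against 6.73% of all genes and 9.88% of the detected genes, and 0 were higher, against 4.13% of all genes. There were 0 of the 76 genes without overlap of the mice, against 0.99% of all genes in the higher and 1.95% in the lower direction. The 8 genes included Rpl35, Rpl27a and Rplp0 of the large subunit and Rps12, Rps27, Rpsa and Rps6 of the small subunit, with log2 differences between -0.25 and -0.16. Their share of the 76 lies near that of the detected genes. This comparison shares the DEN animals with the former, so a high DEN value moves both.

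For Rplp0 the log2 difference of Gas1 against DEN was -0.25 (SE 0.08, adjusted p = 0.268, limma), for Rpsa -0.24 (SE 0.08, adjusted p = 0.305, limma) and for Rps6 -0.24 (SE 0.08, adjusted p = 0.25, limma). For Rps27 it was -0.19 (SE 0.07, adjusted p = 0.317, limma). In none of these genes were the mice of both groups apart. The highest values belonged to Rps3a with 0.14 (SE 0.18), Rpl37a with 0.13 (SE 0.11) and Rpl35a with 0.09 (SE 0.12), and for each the mice overlapped. Rps3a is one of the genes whose probes disagreed. Its DEN mice spread from 11.25 to 11.94 and its Gas1 mice from 11.09 to 12.22, while its Control mice lay between 11.66 and 11.71. Rpl37a read between 15.32 and 15.69 in the DEN mice and between 15.25 and 15.89 in the Gas1 mice. On slide 1 the median of the 76 genes was -0.12 and on slide 2 it was -0.02.

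Gas1 against Control livers asked what remained of the difference from saline animals. No ribosomal protein gene passed an adjusted p of 0.05 in limma, against 0.177% of all genes called higher and 0.25% called lower, and the methods' t-test again called 0 of the 76, with 8 at an unadjusted p under 0.05. The median log2 difference was 0.08, with 0.09 for the large and 0.06 for the small subunit, against 0.00 for all genes, and it was above 0 in 56 of the 76 genes. At an unadjusted p under 0.05, 6 genes were higher (7.89%), against 6.17% of all genes and 8.49% of the detected genes, and 2 were lower (2.63%), against 7.02% of all genes and 12.5% of the detected genes. The mice did not overlap in 4 genes that were higher, against 2.66% of all genes, and in 2 that were lower, against 2.79%. The former included Rplp0, Rps27 and Rps18, and the latter were Rpl10 and Rps2. Rplp0 differed by 0.27 (SE 0.09, adjusted p = 0.216, limma), Rps27 by 0.28 (SE 0.07, adjusted p = 0.119, limma) and Rps2 by -0.45 (SE 0.11, adjusted p = 0.104, limma). Rps6 differed by 0.00 (SE 0.08, adjusted p = 0.996, limma). The single probe of Rps21 gave the highest value, 0.30 (SE 0.34, adjusted p = 0.756, limma), and it was the noisiest member, with Control mice at 8.18, 9.33 and 9.08 and Gas1 mice between 8.54 and 9.77. Its value was -0.04 without Control 1 and 0.54 without Control 2. Rpl4, a protein that lines the exit tunnel, lay among the lowest with -0.13 (SE 0.13, adjusted p = 0.72, limma), with Control mice between 11.67 and 11.997 and Gas1 mice between 11.43 and 11.96. Without Control 3 the value of Rps2 was -0.58 with an adjusted p of 0.0426 (limma), and it was then the 1 called gene of the 76.

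The members varied little between mice of a group. The median of their within-group SDs was 0.12 on the log2 scale, against 0.16 for the genes detected on all arrays. Among the members the SD was smallest for Rpl10 (0.06) and largest for Rps21 (0.54). The members are bright and the detected genes were not matched to them in signal. A smaller spread of the members cannot be told apart here from one that depends on brightness.

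Related genes were described by counts and medians. Of 3 ribosomal proteins with other names, Gnb2l1, the scaffold protein RACK1 of the small subunit, differed by 0.22 in DEN against Control livers (SE 0.07, adjusted p = 0.116, limma), while Fau, a ubiquitin-like fusion, gave 0.02. Among 9 paralogues 0 were called in limma and 2 were higher at an unadjusted p under 0.05, against 10.8% of all genes. These were Rpl22l1, at 0.40 (SE 0.11, adjusted p = 0.0682, limma), whose parent gene Rpl22 gave 0.07, and Rpl36al at 0.31 (SE 0.11, adjusted p = 0.133, limma). Rps27l, a p53 target related to Rps27, gave -0.23 (SE 0.11, adjusted p = 0.254, limma). The array also names 15 pseudogenes of the members, a set chosen after values were seen. Their median difference was 0.05, with 12 of 15 above 0, against 52.1% of all genes.

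The 76 mitochondrial ribosomal proteins, which build the separate ribosome of mitochondria, had a median difference of -0.01 in DEN against Control livers. At an unadjusted p under 0.05, 7 were higher and 7 lower, against 10.8% and 9.48% of all genes. In limma, Mrpl20 rose by 0.41 (SE 0.09, adjusted p = 0.0469) and Mrpl15 fell by 0.26 (SE 0.06, adjusted p = 0.0439). Of 67 genes of ribosome assembly, 21 were higher and 1 was lower at an unadjusted p under 0.05 in that comparison. The shares of all genes were again 10.8% and 9.48%. The median of the 67 genes was 0.12, against 0.01 for all genes. Nop56, a core protein of the particles that methylate rRNA, rose by 0.63 (SE 0.10, adjusted p = 0.0114, limma). In Gas1 against DEN livers 16 of the 67 genes were lower and 1 was higher at an unadjusted p under 0.05. Of all genes, 6.73% were lower and 4.13% higher. The median of the 67 genes was -0.11, and 0 passed the adjustment in limma. Of 18 genes of RNA polymerase I, which transcribes rRNA, and its factors, Polr1e, a subunit of that enzyme, rose by 0.38 (SE 0.06, adjusted p = 0.0114, limma) and Polr2h, a subunit that all nuclear RNA polymerases share, by 0.33 (SE 0.07, adjusted p = 0.0308, limma) in DEN livers. Polr1e fell by 0.30 in Gas1 against DEN livers (SE 0.05, adjusted p = 0.0406, limma). In DEN against Control livers the median was 0.04 for the 22 elongation factors and other TOP mRNAs and 0.06 for the 27 initiation factors. It was 0.07 for the 36 TOP regulators and growth signalling genes. In limma 0 genes of these 3 lists were called, against 1.22% of all genes called higher and 1.17% called lower. At an unadjusted p under 0.05, 4, 5 and 6 were higher and 1, 1 and 6 lower, in the same order. Of all genes, 10.8% were higher and 9.48% lower.

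Markers of other cells moved beside these results, and in bulk tissue fewer cells of a type and less RNA per cell cannot be told apart. Of 7 erythroid markers, 5 were higher in DEN than in Control livers at an unadjusted p under 0.05, against 10.8% of all genes. Of the 7 markers 0 passed the adjustment in limma. Their median log2 difference was 1.19, and their summed signal was between 26708 and 63792 in Control, between 70846 and 98412 in DEN and between 41795 and 195025 in Gas1 mice. The 4 globin genes had differences between 1.19 and 2.26 and Alas2, of haem synthesis, had -0.13. The median was 0.05 for 11 lymphocyte, 0.09 for 8 macrophage, 0.08 for 7 endothelial, -0.25 for 8 stellate, -0.17 for 6 cholangiocyte, -0.03 for 9 exocrine pancreas and 0.04 for 11 proliferation markers. Of these, the macrophage marker Emr1, well above background on 13 arrays, rose by 0.31 (SE 0.06, adjusted p = 0.0262, limma). At an unadjusted p under 0.05, 2 of the 8 macrophage markers were higher, Emr1 included, and 1 was lower. The shares of all genes were 10.8% higher and 9.48% lower. The 10 hepatocyte markers had a median of -0.11. At an unadjusted p under 0.05, 2 were higher and 3 lower, against 10.8% and 9.48% of all genes. Among them Ttr, which encodes transthyretin, fell by 1.01 (SE 0.13, adjusted p = 0.00594, limma). The part of these cells in the difference of the ribosomal protein genes was not tested.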

How the data were processed

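Liver RNA was measured on single-colour Agilent arrays. The authors deposited the scanner intensity of each spot and of its background, with flags, as Feature Extraction wrote them, and a series table of normalized log2 values, which was used as an alternative only. From the intensity, normexp (offset 50), log2 and quantile normalization over 59305 non-control spots were repeated, with outlier-flagged spots set to missing. Probes were centred and averaged by gene symbol (22032 genes, no filter on dim probes). Arrays of 1 RNA code, whose difference had an SD under 0.7 times that of the next closest pair (ratios 0.502 and 0.609), were averaged, which gave 13 mice. Nothing says that these came from separate litters, so p-values measure the spread between these samples. Groups were compared with limma 3.58.1 in R 4.3.3 (lmFit, eBayes, version 1.17.8 of the data.table package, fit tested on simulated data) and Benjamini-Hochberg adjustment over all genes. Lists and subunits were described without a test. Sequences came from the scanner files (mm9 positions) and RefSeq tables (GRCm38.p6), read with Python 3.11.15 and pandas 2.3.3, and figures were drawn with matplotlib 3.10.9.

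The members and lists were chosen with earlier results of these data known. Genes given with values were Rpsa, the stalk genes, every called member, the 3 highest and 3 lowest members of each comparison, Rps6, Rpl5, Rpl11, Rps27a, members whose probes lay over 0.5 apart, and called genes of the other lists. Rpl10, Rpl21, Rpl22 and other names outside that rule were added after their values were seen. Alternatives covered scaling, background correction, probe filters and averaging, flagged spots, separate arrays, slide, replicate number, the variance model, the t-test and leaving out each mouse. Some items are not reported here.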

Additional observations from a re-analysis of the deposited data

Results flagged for a closer look

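Of 43 groups of values examined with Dixon's test, 1 had a sample far from the others, and chance alone gives about 1 in 20. It was the large minus small subunit median of the DEN mice. DEN 2 stood at -0.10 while the other DEN mice lay between 0.02 and 0.04, and its gap took 0.839 of the range, just past the limit for 4 samples. Its small subunit genes were higher than its large subunit genes relative to Control livers. The same mouse had the highest median of all members.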

How the results depend on the processing

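The number of ribosomal protein genes called in DEN against Control livers, 3 as reported, was 59 with median scaling, 1 with cyclic loess and 0 with the processed signal. It was 8 with the series table, 5 with the brightest probe of each gene and 13 with the 15 arrays as separate samples (12 higher and 1 lower). It was 0 on slide 1 alone, 0 on slide 2 alone, and 0 with the plain t-test in either form (equal variances or Welch). Leaving out a mouse gave 0 to 5. In Gas1 against Control livers it was 1 with the 15 arrays as separate samples (Rps27, 0.29) and 0 to 1 when a mouse was left out, against 0 as reported. The median of the 76 genes was 1.16, -0.24 and 0.89 with median scaling and 0.31, -0.28 and 0.0176 with the processed signal, in DEN against Control, Gas1 against DEN and Gas1 against Control livers, where the genes detected on all arrays shifted by 0.65, -0.09 and 0.56 and by 0.09, -0.13 and -0.04. The large minus small subunit median of DEN against Control livers lay between -0.0561 and 0.0208 without 1 mouse. Rpl37a, at -0.02 as reported, was at 1.10 with median scaling (adjusted p = 0.0432, limma). The cause of these changes was not tested. Rps2 was called in DEN against Control livers with the 15 arrays as separate samples (adjusted p = 0.0388, limma). The calls of Rpsa, Rplp0 and Rps27 held in 16 of 32, 21 of 32 and 24 of 31 alternatives. Their adjusted p ranged from 0.00696 to 0.285, from 0.00237 to 0.273 and from 0.00125 to 0.272 (limma, and the plain t-test where used). All genes called in DEN against Control livers, 525 as reported, were 2832 with median scaling, 185 with cyclic loess and 57 with the processed signal. They were 591 with the series table, 603 with the brightest probe and 1947 with separate arrays. With a slide term and separate arrays blocked by RNA code they were 799, and without 1 mouse 89 to 761. In Gas1 against Control livers they were 342 with separate arrays, against 94 as reported. With the replicate number as a block, 2 of the 76 genes and 268 of all genes were called and the median was 0.16. Same-numbered mice did not deviate together (correlations between -0.313 and 0.249 in 10 pairs). These values cannot say whether mice of the same number were paired by litter or handling. The number of arrays and the dim probes of a few genes limit the precision.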

Other observations

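Related genes outside the 76 gave further values. Rpl22l1, the paralogue of Rpl22, was higher in every DEN mouse (11.43 to 11.54) than in every Control mouse (10.82 to 11.27), and lower in every Gas1 mouse (10.91 to 11.36) than in every DEN mouse. Its log2 difference of Gas1 against DEN was -0.34 (adjusted p = 0.172, limma). Gnb2l1 showed the same order of DEN and Gas1 mice, with -0.14 in Gas1 against DEN livers (adjusted p = 0.424, limma). Nop56 was higher in every DEN mouse (8.04 to 8.55) than in every Gas1 mouse (7.89 to 8.03), and higher in every Gas1 mouse than in every Control mouse (7.56 to 7.62).

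Pseudogenes of Rpl21 gave log2 differences of DEN against Control between -0.10 and 0.05, while Rpl21 itself gave 0.21 (SE 0.09, adjusted p = 0.211, limma) from the probe seen on 13 of the 15 arrays and the one seen on none. These names were chosen after their values were seen.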
